A study of Homo sapiens with 7 samples.

Results

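HUES8 is an established human embryonic stem cell line. In its TET knockout cells, 354 genomic bins of 1 kb met a rule for late methylation gain. The rule did not ask at which stage after the stem cells a bin rose. Each bin was low in wild-type cells at every stage and in knockout stem cells, and partly or fully methylated in knockout cardiac progenitors. A bin was chosen when its methylation level, the share of C reads among C and T reads summed over both strands of its CpGs, was under 20% in all 4 wild-type libraries and in knockout stem cells, and 30% or more in knockout cardiac progenitors. Only bins with 5 or more CpGs of 10 or more reads in every one of the 7 libraries were considered, which left 85087 bins. Of these, 25084 were under 20% in the 5 libraries that set the ceiling, and are called low bins here. The 354 late-gaining bins were 1.41% of the low bins, and the remaining 24730 are called the other low bins. The choice rests on measured values of 6 libraries, so levels in those libraries are given as a description. Knockout cells at the cardiac mesoderm stage were the only library that the choice did not use, and the single test below sets that library against knockout stem cells, whose levels the rule capped.

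The assay was enhanced reduced representation bisulfite sequencing. It enriches CpG-rich fragments and converts unmethylated cytosine, which then appears as T in the reads. Methylated cytosine appears as C, and oxidised forms that also appear as C were not told apart from it. The knockout cells (TKO) lacked TET1, TET2 and TET3 per the labels and were sampled as stem cells (SC, day 0), at the cardiac mesoderm stage (CME, day 3) and at the cardiac progenitor stage (CP, day 8). The wild-type cells (WT) were sampled at the same 3 stages and as beating cardiomyocytes (CM, day 14). Cells of both genotypes went through the same monolayer protocol, with the Wnt activator CHIR99021 first and the Wnt inhibitor IWP2 after it, in RPMI medium with B27. Between CP and CM the protocol adds a period in glucose-free lactate medium, which enriches for cardiomyocytes. For the WT CM library, the title and the series text (day 14) were followed, although 1 of its labels gives the CME stage. There was 1 library per genotype and stage, so no difference can be set against replicate spread, and the tests below compare libraries. The files hold no expression values, so neither the knockout nor the cell types were checked here. Bisulfite reads come from many cells, and a bin at an intermediate level cannot be told apart from a mixture of cells or alleles with high and low levels.

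The libraries held between 120742115 and 213058905 reads summed over cytosines. In the late-gaining bins the median number of reads per bin, summed over CpGs, was 2041.5 (TKO SC), 2137 (TKO CME) and 1354 (TKO CP), and it lay between 1048 and 1678.5 in the WT libraries. The share of C reads in mitochondrial DNA, a measure of unconverted cytosine, was 0.141% (TKO SC), 0.387% (TKO CME) and 0.139% (TKO CP). It was 1.46% in WT SC and 1.44% in WT CME, against 0.219% in WT CP and 0.216% in WT CM. These shares are small beside the 30% that a bin had to reach.

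Most CpGs of the human genome are methylated, and CpG-dense islands, which cover many promoters and developmental genes, are kept free of methylation. The DNMT3 enzymes place new methyl groups and DNMT1 copies them at replication. The TET dioxygenases oxidise 5-methylcytosine, which leads back to unmethylated cytosine through base excision repair or through loss at replication. TET activity is known to act at enhancers and at the borders of unmethylated islands in embryonic stem cells.

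The late-gaining bins took different forms at gene starts. To name genes, the RefSeq promoter sequences (build GRCh38.p14, 250 bases before to 50 after each start) were placed on the hg19 CpG positions of the files by the spacing of their CpGs, and 13824 of 35116 had a single placement. Distances to starts are counted from the centre of a bin. The promoter sequences below were picked after their values were seen, 4 because the promoter's own CpGs stood high in TKO CP and 2 because most of their measured CpGs lie inside a late-gaining bin and stood low there. Each shows the 250 bases before the start, 5′ to 3′ along the gene, in lower case, with capitals marking the CpGs measured in every library. The hg19 positions are chr16:28891114-28891363 (plus strand) for ATP2A1, chr19:12511795-12512044 (minus strand) for ZNF799, chr12:22094361-22094610 (minus strand) for ABCC9, chr2:177053146-177053395 (plus strand) for HOXD1, chr1:27718876-27719125 (plus strand) for GPR3 and chr2:176866996-176867245 (minus strand) for LNPK.
ATP2A1: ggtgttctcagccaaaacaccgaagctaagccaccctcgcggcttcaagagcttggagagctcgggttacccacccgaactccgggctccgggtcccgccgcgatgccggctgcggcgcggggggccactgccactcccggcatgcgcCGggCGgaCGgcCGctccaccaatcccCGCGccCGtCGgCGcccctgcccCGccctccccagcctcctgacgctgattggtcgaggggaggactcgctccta
ZNF799: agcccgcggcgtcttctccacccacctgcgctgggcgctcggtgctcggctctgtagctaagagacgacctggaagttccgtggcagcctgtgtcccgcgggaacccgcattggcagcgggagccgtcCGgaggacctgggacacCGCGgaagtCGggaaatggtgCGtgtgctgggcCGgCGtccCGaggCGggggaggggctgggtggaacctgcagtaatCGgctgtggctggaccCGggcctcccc
ABCC9: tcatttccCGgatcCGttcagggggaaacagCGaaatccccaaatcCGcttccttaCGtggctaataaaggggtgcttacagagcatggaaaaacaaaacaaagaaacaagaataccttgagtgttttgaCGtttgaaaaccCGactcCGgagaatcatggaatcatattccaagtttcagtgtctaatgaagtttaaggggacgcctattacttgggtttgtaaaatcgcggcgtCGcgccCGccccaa
HOXD1: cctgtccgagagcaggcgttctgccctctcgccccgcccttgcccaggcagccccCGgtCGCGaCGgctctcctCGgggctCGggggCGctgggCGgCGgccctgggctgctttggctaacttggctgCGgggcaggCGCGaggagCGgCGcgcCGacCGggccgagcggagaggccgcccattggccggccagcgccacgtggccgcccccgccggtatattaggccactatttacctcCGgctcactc
GPR3: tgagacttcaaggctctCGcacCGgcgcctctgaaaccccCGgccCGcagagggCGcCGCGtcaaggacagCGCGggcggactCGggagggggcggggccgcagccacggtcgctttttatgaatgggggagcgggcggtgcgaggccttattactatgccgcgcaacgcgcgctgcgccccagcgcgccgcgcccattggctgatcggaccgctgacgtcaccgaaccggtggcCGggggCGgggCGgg
LNPK: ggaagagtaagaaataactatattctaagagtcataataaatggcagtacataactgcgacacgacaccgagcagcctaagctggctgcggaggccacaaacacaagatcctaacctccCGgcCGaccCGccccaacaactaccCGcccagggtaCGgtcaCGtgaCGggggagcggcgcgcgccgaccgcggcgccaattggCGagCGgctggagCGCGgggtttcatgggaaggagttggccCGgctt

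The stretch before this RefSeq start of ATP2A1, which encodes the SERCA1 calcium pump of fast skeletal muscle, stood at 9.01% (TKO SC), 21.1% (TKO CME) and 88.9% (TKO CP). In WT cells it was at 0.637% in SC and at 0% in CME, CP and CM. All 10 measured CpGs were at 71.9% or more in TKO CP, and they are also the measured CpGs of the overlapping antisense transcript ATP2A1-AS1, whose start was placed on the opposite strand. The stretch before ZNF799, a zinc finger gene of chromosome 19, was at 0.435% (TKO SC) and 0.499% (TKO CME). In TKO CP it stood at 71.7%, with its 11 CpGs between 54.8% and 84.4%. WT levels there were 0.431%, 1.67%, 0% and 0.209% from SC to CM. The stretch thus showed no gain by day 3 and stood high at day 8. The 3 measured CpGs within 1000 bp after this start averaged 26.7% (TKO SC), 15.3% (TKO CME) and 82.3% (TKO CP), and between 3.70% and 9.12% in WT libraries.

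ABCC9 encodes the SUR2 subunit of the ATP-sensitive potassium channels of heart and muscle, and its stretch had 11.2% (TKO SC), 19.02% (TKO CME) and 50.5% (TKO CP). WT levels there were 0.482%, 4.38%, 1.67% and 0.532% from SC to CM. HOXD1, a homeobox gene of the HOXD cluster, had 2.55%, 3.87% and 38.8% at the 3 TKO stages and between 0.0512% and 1.85% in WT libraries. GPR3, which encodes an orphan receptor that raises cyclic AMP, starts just beyond a late-gaining bin that stood at 16.8% (TKO SC), 34.1% (TKO CME) and 33.7% (TKO CP). Of the 13 measured CpGs of its promoter stretch, the 10 inside that bin were at 1.41%, 2.08% and 1.71% at the TKO stages. LNPK encodes lunapark, a protein of endoplasmic reticulum junctions. The late-gaining bin beside this start stood at 19.2%, 21.6% and 38.8%, and the 11 of its 12 promoter CpGs inside the bin were at 0.356%, 0.331% and 1.55%. In the GPR3 and LNPK bins the methylated CpGs were those away from the promoter stretch.

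**Figure D1:**
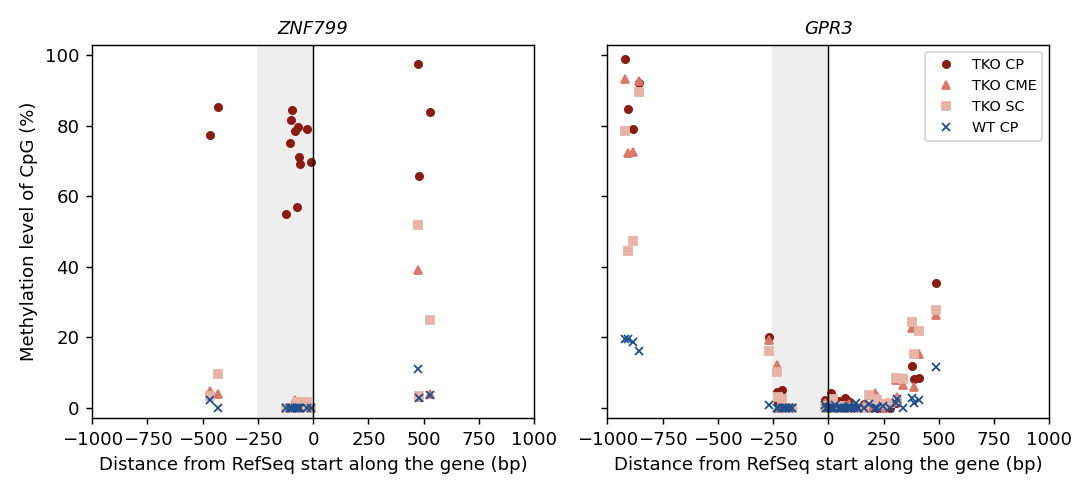
Methylation level of each measured CpG (%) against its distance from the RefSeq start along the gene (bp) for ZNF799 and GPR3, in TKO CP, TKO CME, TKO SC and WT CP; the grey band marks the 250 bases before the start. At ZNF799 the 11 CpGs of the band stand between 54.8% and 84.4% in TKO CP. At GPR3 the 13 CpGs of the band stay at or under 5% in TKO CP, and 4 CpGs farther before the start reach up to 99.0% there.

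At GPR3, the 4 CpGs between 1000 and 500 bp before the start averaged 65.0% (TKO SC), 82.8% (TKO CME) and 88.7% (TKO CP), and between 18.4% and 26.1% in WT libraries. Those in the last 250 bp averaged 1.24%, 1.15% and 1.01% at the TKO stages. The level of this bin thus averaged 2 unlike stretches. Across the late-gaining bins, 48 starts of 43 genes had 5 or more measured CpGs of the 250 bases inside such a bin. Over these CpGs, 36 starts (32 genes) were at 30% or more in TKO CP, 7 were between 10% and 30%, and 5 starts of 4 genes (GPR3, LNPK, NGEF and WNT1) were under 10%. For WNT1 this covers 9 CpGs at 9.47%, and all 26 measured CpGs of its 250 bases stood at 21.5% in TKO CP. At the 36 starts the medians were 9.02% (TKO SC), 13.1% (TKO CME) and 44.1% (TKO CP). Some starts share CpGs, such as those of ATP2A1 and ATP2A1-AS1 or of HOXD1 and HAGLR. These counts and medians therefore take some CpGs more than once. HENMT1, which encodes a methyltransferase of piRNAs, reached 71.9% in TKO CP. FKBP11, which encodes a prolyl isomerase of the endoplasmic reticulum, reached 69.6% there, and the mesoderm homeobox gene MEOX2 reached 43.2%. LRAT, an enzyme of vitamin A storage, was among the intermediate starts, at 22.1%.

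Over the 354 bins, the median level was 12.5% (TKO SC), 16.6% (TKO CME) and 39.6% (TKO CP). The middle 50% of bins spanned 7.96% to 17.0% (TKO SC), 10.2% to 21.5% (TKO CME) and 34.1% to 48.4% (TKO CP). In WT cells the medians were 4.15%, 5.37%, 2.13% and 2.78% from SC to CM. The other low bins had medians of 0.814%, 0.882% and 0.825% at the 3 TKO stages and of 1.68%, 1.71%, 0.232% and 0.248% at the 4 WT stages. The late-gaining bins were thus higher than the other low bins already in knockout stem cells, although the ceiling held both under 20%. TKO SC was above WT SC in 325 of the 354 bins, against 30.02% of the other low bins. The other low bins stood near the unconverted share of WT SC, 1.46%. With each library's unconverted share taken off, TKO SC was above WT SC in 336 of the 354 bins (94.9%), against 74.0% of the other low bins. The highest WT level was under 10% in 247 of the 354. In TKO SC, 47 bins were under 5% and 219 were at 10% or more.

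**Figure D2:**
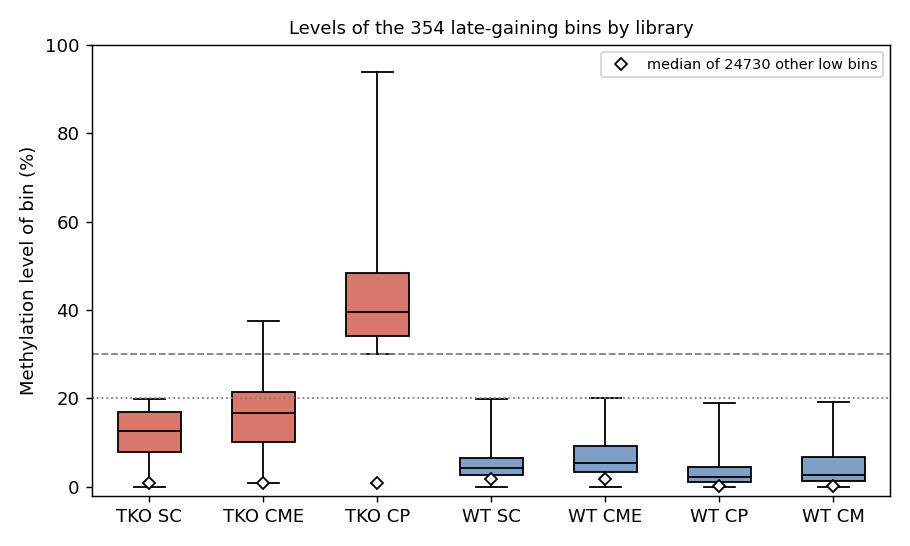
Methylation level (%) of the 354 late-gaining bins in each library; boxes span the middle 50% with the median as a line, whiskers reach the lowest and highest bin, and diamonds give the median of the 24730 other low bins. The dotted and dashed lines mark the 20% and 30% limits of the rule; the TKO medians are 12.5%, 16.6% and 39.6% at SC, CME and CP.

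In TKO CP the gain was mostly partial. Of the 354 bins, 183 were between 30% and 40%, 95 between 40% and 50%, and 76 (21.5%) at 50% or more, of which 13 were at 80% or more. At the limit, the bins just inside were chr22:38610001-38611000 at 30.02%, a bin near FOXA1 at 30.04% and a bin near LHX9 at 30.06%. The bins just outside were chrX:41301001-41302000 at 29.99%, chr12:53617001-53618000 at 29.98% and chr5:178422001-178423000 at 29.93%. There were 112 low bins between 30% and 35% and 192 between 25% and 30%, so the limit falls on a continuous slope.

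The highest level was at chr4:169799001-169800000, centred 727 bp upstream of a RefSeq start of the uncharacterised LOC102723331. It stood at 9.67% (TKO SC), 16.7% (TKO CME) and 93.8% (TKO CP), with a 95% Wilson interval of 93.0% to 94.5% for TKO CP over 57 CpGs, and at 2.73%, 6.98%, 6.58% and 13.7% from WT SC to WT CM. The adjoining bin, which holds that start, stood at 11.9%, 7.41% and 87.5% at the TKO stages. FOXE1, a forkhead factor of thyroid development, had a bin 4993 bp downstream of its start at 14.3% (TKO SC), 26.2% (TKO CME) and 93.1% (TKO CP). WT levels there were 3.89%, 2.77%, 0.886% and 0.639%. A bin 1505 bp downstream of CGB7, a beta subunit gene of chorionic gonadotropin, had 13.01%, 15.8% and 92.2% at the TKO stages, and the bin over a start of CHLSN had 17.5%, 20.1% and 93.6%. A bin between the placed starts of SYNE2, which encodes a nesprin of the nuclear envelope, and ESR2, estrogen receptor beta, had 19.97%, 23.4% and 93.4%. In these bins most of the gain fell between day 3 and day 8.

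TKO CME, the library outside the rule, stood between 0.784% and 37.5% in the late-gaining bins. In it, 230 of the 354 bins were still under 20%, 124 were at 20% or more and 9 had already reached 30%. Read the other way, the share of low bins that were late-gaining climbed with the TKO CME level. It was 0.120% of the low bins under 5% in TKO CME, 2.34% of those between 5% and 10%, 7.05% of those between 10% and 20%, 33.4% of those between 20% and 30%, and 9 of the 15 at 30% or more. With the unconverted share of each library taken off, TKO CME was above WT CME in 334 of the 354 bins (94.4%), against 56.3% of the other low bins.

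**Figure D3:**
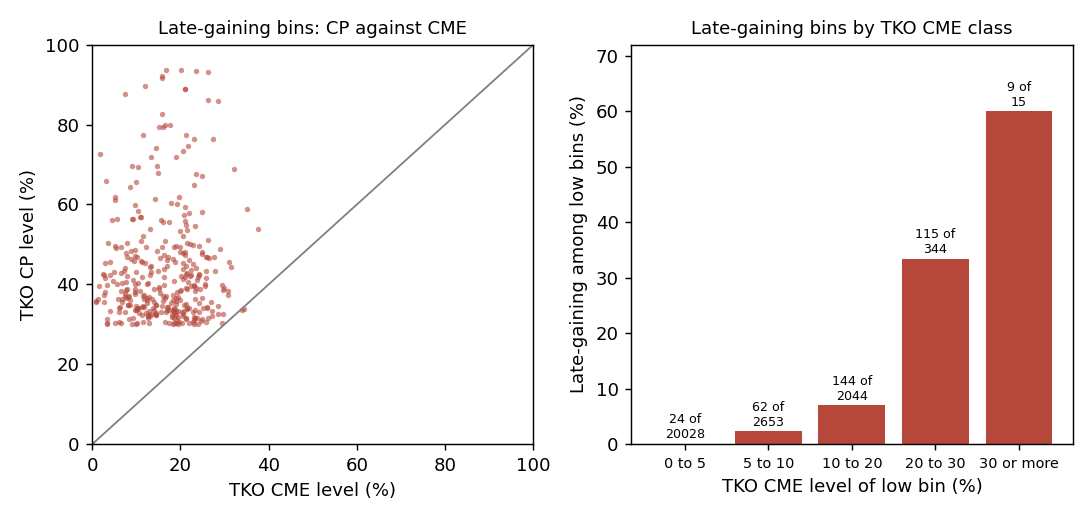
Left, TKO CP level (%) against TKO CME level (%) of each of the 354 late-gaining bins, with the line of equal levels. Right, the share of low bins that are late-gaining (%) by TKO CME level, with the numbers of late-gaining and low bins above each bar; it is 0.120% under 5% and 33.4% between 20% and 30%.

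The step between day 0 and day 3 was small beside the one after it. TKO CME was above TKO SC in 287 of the 354 bins (81.1%), against 56.9% of the other low bins and 54.1% of all bins. The median difference, TKO CME minus TKO SC, was 3.67 points (middle 50%, 0.895 to 6.82 points), against 0.0631 points in the other low bins. TKO CP minus TKO CME had a median of 24.6 points (middle 50%, 17.3 to 35.2 points), against -0.0523 points in the other low bins. TKO CP was above TKO CME in 352 bins, against 10886 of the 24730 other low bins and 57412 of all 85087 bins. The rule asked for 30% or more in TKO CP, so the size of the step to TKO CP partly follows from the choice of bins. In the median bin, TKO CME had covered 11.8% of the distance between TKO SC and TKO CP (middle 50%, 2.64% to 27.7%). In 24 bins it had covered 50% or more of the distance, and in 67 bins it lay below TKO SC. TKO SC was held under a ceiling by the rule. Bins chosen on the reads of 1 strand and measured on the other, where the ceiling was set on separate reads, had median differences of 3.31 points (chosen on the plus strand) and 2.99 points (chosen on the minus strand).

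TKO CME was tested against TKO SC by Fisher's exact test (two-sided) on the C and T reads of each of the 85087 bins, with Benjamini-Hochberg adjustment over all of them. At an adjusted p under 0.01 and a difference of 10 points or more, 43 late-gaining bins (12.1%) were higher in TKO CME, against 1.64% of all bins and 0.218% of the other low bins. At that size 0 were lower, against 1.23% of all bins and 0.0404% of the other low bins, and the ceiling on TKO SC left little room for such a fall. With no limit on size, 197 late-gaining bins (55.6%) were higher and 14 (3.95%) were lower, where 10.6% of all bins and 11.2% of the other low bins were higher, and 6.88% and 6.92% lower. The rule capped TKO SC and asked for a high TKO CP, so these shares can partly reflect the choice of bins. The 43 bins rose by 10.01 to 20.8 points, with a highest adjusted p of 0.00131, and had medians of 12.3% (TKO SC), 26.2% (TKO CME) and 43.4% (TKO CP). Chosen on plus strand reads and tested on the minus strand, 11 of 189 bins (5.82%) were called higher, against 1.69% of all 23800 bins tested. Chosen on the minus strand and tested on the plus strand, 20 of 165 (12.1%) were called higher, against 1.70% of all 23800. Neighbouring CpGs share reads and PCR copies are not independent molecules, so these p-values and intervals cover counting error only and can be too small.

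Bins that moved early and bins that did not move before day 3 were both present. The bin at chr5:145214001-145215000, picked after its values were seen, stood at 10.9% (TKO SC), 30.8% (TKO CME) and 37.5% (TKO CP), and its rise to TKO CME had an adjusted p of 2.24e-64 by Fisher's exact test. A bin at chr19:54446001-54447000 had the highest TKO CME level, 37.5%, against 18.6% in TKO SC (adjusted p = 6.48e-07 by Fisher's exact test), and stood at 54.0% in TKO CP. Both bins were picked with their TKO CME values known, so these p-values are a description and cover counting error only. At the other end, a bin 7507 bp downstream of a start of NR2F2, the nuclear receptor COUP-TFII, had the lowest TKO CME level, 0.784%. TKO SC was at 1.44% there, and TKO CP at 35.5%. The bin at chr19:17346001-17347000 held 76 CpGs, with 0.659% (TKO SC), 1.25% (TKO CME) and 36.4% (TKO CP).

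Within the bins, levels were uneven between CpGs. Of the 8221 CpGs measured in the late-gaining bins, 94.6% were higher in TKO CP than in TKO SC. The rule set the bins low in TKO SC and high in TKO CP, so this share largely follows from the choice. CpGs at 50% or more made up 5.16% (TKO SC), 6.71% (TKO CME) and 36.3% (TKO CP) of them. The SD between CpGs of a bin had a median of 16.1 points in TKO CP, against 10.7 points in TKO SC. In TKO CP, 200 bins held both a CpG under 20% and a CpG at 50% or more, 147 had every CpG at 20% or more and 25 had every CpG at 50% or more. The plus and minus strands of the same CpGs were compared in bins with 3 or more CpGs read on both. These were 240 (TKO SC), 241 (TKO CME) and 231 bins (TKO CP). The strands differed by medians of 3.35 (TKO SC), 3.13 (TKO CME) and 4.77 points (TKO CP). Differences over 10 points were found in 31 (TKO SC), 25 (TKO CME) and 42 (TKO CP) of these bins.

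The late-gaining bins held fewer CpGs than the other low bins and more than the average bin. Their median was 19 CpGs measured in all libraries (middle 50%, 11 to 31; range 5 to 95), against 27 in the other low bins and 9 in all bins. Counting CpGs seen in any library, the medians were 27.5, 36 and 13. The share of low bins that were late-gaining was 2.00% at 5 to 9 CpGs, 1.961% at 10 to 19, 1.57% at 20 to 39 and 0.587% at 40 or more. Dense bins were still present, 46 of them with 40 or more CpGs. The densest, chr12:52214001-52215000 with 95 CpGs, stood at 7.48% (TKO SC), 8.58% (TKO CME) and 64.3% (TKO CP), and between 6.89% and 9.63% in WT libraries. Among the late-gaining bins the TKO CP median hardly varied with CpG number and lay between 37.7% and 41.8% over the 4 classes.

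Low bins over placed promoters were late-gaining less often than low bins over none. Only 13824 of 35116 promoters had a single placement, which needed 6 or more measured CpGs. Bins over none can therefore include bins over promoters that were not placed. Promoters were placed on every chromosome with late-gaining bins except chromosome 8, where they were not analysed, which leaves 344 of the 354 bins. Of these, 55 (15.99%) overlapped a placed promoter by any length, against 44.5% of the other low bins and 15.2% of all bins. Of low bins over a placed promoter, 0.517% were late-gaining, and of low bins over none, 2.14%. The gap was present in each class of CpG number, with 0.553% over promoters and 2.33% elsewhere at 5 to 9 CpGs, and 0.199% and 1.20% at 40 or more CpGs. The median distance to the nearest placed start was 11625 bp for the late-gaining bins and 779 bp for the other low bins. The 64 placed promoters in late-gaining bins had a median of 28.5 CpGs in 300 bases and 68% G plus C, against 31 CpGs and 69.7% for the 12019 in other low bins. The motif TATAAA, searched on both strands, was in 2 of the 64 promoters in late-gaining bins (3.13%), in 3.30% of those in other low bins and in 5.28% of placed promoters in the remaining bins. Over all promoters of that length in the RefSeq table, CpG-poor ones that could not be placed included, it was in 11.5%.

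**Figure D4:**
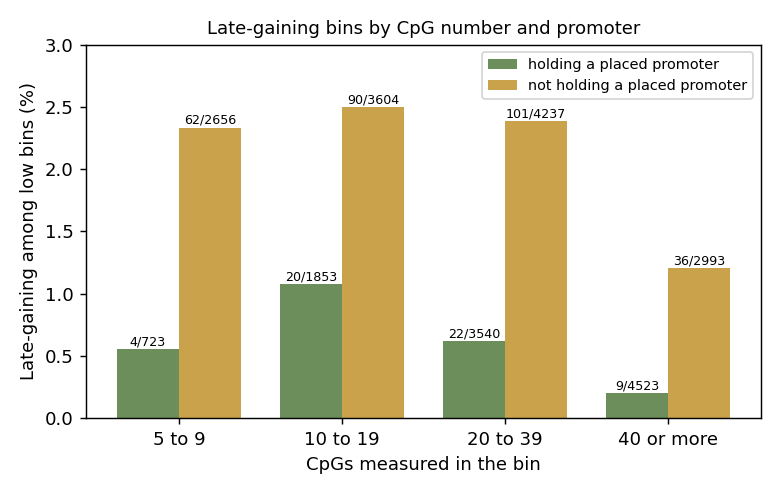
Share of low bins that are late-gaining (%) by the number of CpGs measured in the bin, for bins that hold a placed promoter and bins that do not; the numbers of late-gaining and low bins stand above each bar. The share over promoters is below the share elsewhere in all 4 classes, at 0.553% and 2.33% for 5 to 9 CpGs and 0.199% and 1.20% for 40 or more.

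The bins beside the late-gaining ones were of several kinds. Of the 354 bins, 260 had a measured adjoining bin. Another late-gaining bin adjoined 63 of them (24.2%), against 117 (0.612%) of the other low bins with a measured neighbour. A bin at 50% or more in TKO SC adjoined 60 (23.1%), against 12.3% of the other low bins, and a bin that was low in WT and at 50% or more in TKO SC adjoined 17 (6.54%), against 1.57%. A bin at 50% or more in all WT libraries and in TKO SC adjoined 6.92% of the late-gaining bins, against 6.88% of the other low bins. Only other low bins adjoined 85 (32.7%) of the late-gaining bins and 79.3% of the other low bins. Among the 251 adjoining bins that were not late-gaining themselves, 100 (39.8%) stayed under 20% in TKO CP, with a median of 4.70%. At 20% or more in some WT library were 64 (25.5%), with medians of 68.8% (TKO SC), 74.0% (TKO CME) and 84.7% (TKO CP), and of 36.0% in WT SC. Another 53 were low in WT but between 20% and 50% in TKO SC, and their medians were 29.8% (TKO SC), 32.3% (TKO CME) and 59.4% (TKO CP).

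**Figure D5:**
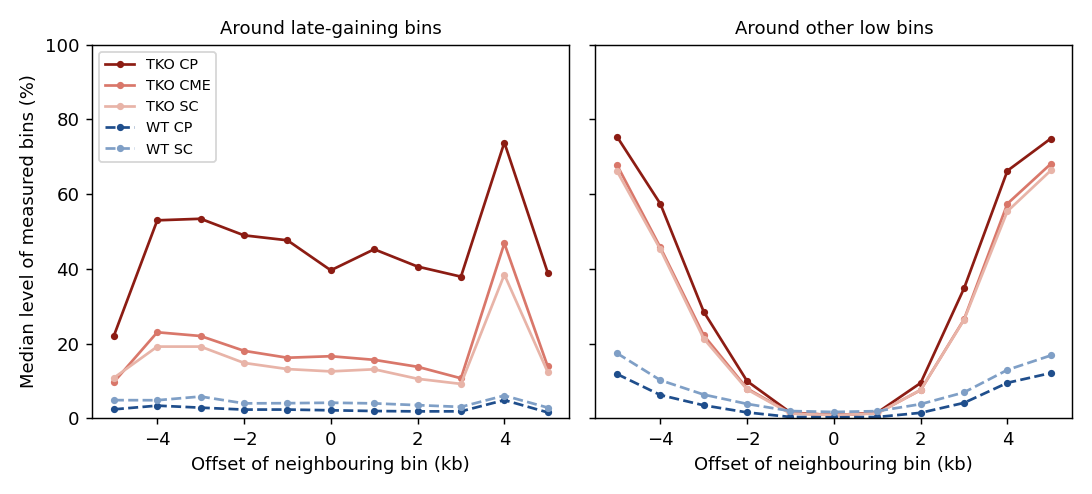
Median methylation level (%) of the measured bins from 5 kb before to 5 kb after the late-gaining bins (left) and the other low bins (right), in TKO CP, TKO CME, TKO SC, WT CP and WT SC. At 1 kb either side of late-gaining bins the TKO CP medians are 47.6% and 45.2%, against 1.507% and 1.498% beside other low bins, and WT CP stays under 5% across the left panel. The measured bins include late-gaining ones, 22.2% and 20.8% of those at 1 kb in the left panel. The 251 adjoining bins that were not late-gaining had a TKO CP median of 37.3%.

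Farther out, WT methylation returned more slowly than around the other low bins. At 3 to 5 kb, 71.5% of the measured neighbours of late-gaining bins were under 20% in all WT libraries, against 53.1% of those of other low bins. Of the WT-low neighbours within 5 kb, 48.2% were at 30% or more in TKO CP, against 7.90% around the other low bins. The neighbours in these shares include late-gaining bins, which the rule set low in WT and at 30% or more in TKO CP. The nearest CpG at 80% or more in TKO SC lay a median of 2270 bp away, against 3592 bp for the other low bins, and within 1000 bp for 111 bins (31.4%), against 16.8%. The nearest CpG at 80% or more in WT SC lay farther, at medians of 6190 bp and 4549 bp. The share of low bins that were late-gaining was 3.84% where a CpG at 80% or more in TKO SC lay within 500 bp and 1.06% where the nearest was beyond 5000 bp. In 17 bins both adjoining bins were measured, differed by 20 points or more in TKO SC and had enough CpGs between them to compare the sides of the bin. In 14 of these 17, CpGs on the side of the higher neighbour had the higher mean in TKO CP, with a median difference of 24.3 points over the 17.

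The 354 bins formed 319 runs of adjoining bins, of which 291 were single bins, 23 held 2 bins, 4 held 3 and 1 held 5. The longest run was chr15:53076001-53081000, in the interval that RefSeq order gives to ONECUT1, a transcription factor of liver and pancreas development. Over its 93 CpGs it stood at 10.5% (TKO SC), 12.97% (TKO CME) and 44.7% (TKO CP), and between 1.81% and 3.17% in WT libraries. Along the run, the 5 bins stood at 39.6%, 30.1%, 37.0%, 45.8% and 60.4% in TKO CP. The run downstream of NR2F2, chr15:96884001-96887000, had 1.92% (TKO SC), 1.62% (TKO CME) and 43.2% (TKO CP). Other runs of 3 included chr15:74425001-74428000 beyond ISLR2, a leucine-rich repeat protein of neurons, at 46.6% in TKO CP, and chr16:49311001-49314000 at 63.9%. With these, chromosome 15 held 28 late-gaining bins, 3.37% of its low bins, and chromosome 19 held 34 (2.07%).

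Regulators of development were sampled through gene lists, taking each low bin within 5000 bp of a placed start. Near any placed start, 127 of 15276 low bins (0.831%) were late-gaining. A list of homeobox and related families, such as HOX, LHX, NKX and POU, had 10 of 257 (3.89%), near LHX9, HOXD10, HOXD1, NKX3-2, POU4F3, EMX2, PHOX2A and ISL2. The HOXD1 bin stood at 9.94% (TKO SC), 11.2% (TKO CME) and 56.8% (TKO CP). PHOX2A, a factor of autonomic neurons, had a bin 4719 bp downstream at 11.5%, 20.9% and 57.3%. NKX3-2, a factor of cartilage development, had 1 bin 4631 bp downstream at 9.89%, 14.4% and 74.2%, and another nearer to its start at 4.21%, 6.84% and 35.6%. MEOX2 was not in this list. The other bins of the list were between 30.1% and 36.3% in TKO CP. In the list of WNT pathway genes, 3 of 59 low bins were late-gaining, all at WNT1, which encodes a secreted Wnt ligand. The bin over its start had 14.8%, 18.2% and 33.7% at the TKO stages, and the bins 2396 and 3396 bp downstream reached 47.1% and 38.7% in TKO CP.

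Cardiac and mesoderm regulators had 1 late-gaining bin of 44 low bins, 3316 bp downstream of TBX5, a T-box factor of heart and forelimb. It stood at 15.5% (TKO SC), 13.5% (TKO CME) and 36.2% (TKO CP), and at 11.9%, 9.90%, 6.62% and 2.50% from WT SC to WT CM. Beyond that distance, TBX5 was the nearest placed start of 2 further late-gaining bins, 7316 and 12316 bp downstream, at 64.8% and 55.5% in TKO CP. Another 3, between TBX5-AS1 and LOC105369998, stood at 52.0%, 48.4% and 89.5% in TKO CP. These further bins lie outside the count of the list. They were followed for TBX5 after values were seen, and low bins at that range were not counted for the listed genes. Forkhead genes had 2 of 58, the FOXE1 bin described above and a bin 3953 bp downstream of FOXA1, an endoderm factor, which was also the single bin of 21 in the endoderm list. Neural bHLH and SOX genes had 0 of 53, clustered protocadherins 0 of 3 and the DNA methylation enzymes 0 of 15. The lists are small, and the counts are a description of these bins. They cover only listed genes that had a low bin within 5000 bp of a placed start. These were 13 cardiac and mesoderm, 67 homeobox, 28 WNT pathway and 20 forkhead genes. In the remaining lists they were 14 neural bHLH and SOX, 5 endoderm, 3 protocadherin and 5 DNA methylation enzyme genes. ONECUT1, in the homeobox and endoderm lists, had no placed start, so the run in its interval was not counted.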

How the data were processed

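The reads of the 7 libraries were aligned and called by a core facility, per the labels' protocols, on hg19, per the submitters' processing notes; aligner and caller: not given in the sources used here. Per the file headers, the deposited tables hold 1 line per CpG cytosine and strand, giving the coverage as a raw read count of at least 10 and the percent of reads called C and T by the authors. Groups were taken from sample titles.

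From these, C and T reads were recovered as coverage times percent, strands of a CpG were summed, and 1 kb bins were formed from CpGs with 10 or more reads in all 7 libraries. Fisher's exact test with Benjamini-Hochberg adjustment over 85087 bins was checked on simulated reads. Its calls compare 2 libraries. RefSeq promoters (GRCh38.p14) with 6 or more CpGs measured and at least 35% of their CpGs measured were placed by CpG spacing; of 13801 steps between neighbouring placed starts, 99.9% followed RefSeq order, and no coordinate was converted. Whether bins lie in exons or introns was not analysed here. Bins described singly were those with the largest TKO CP minus TKO SC difference and the highest and lowest TKO CME level. Others had the most CpGs, lay nearest the 30% limit or were in runs of 3 or more. The text takes examples from these and from the gene lists. It adds 1 bin, bins around TBX5 beyond the 5000 bp of the lists, and promoters, picked after their values were seen. The bins and gene lists were chosen with earlier results of these data known. Tools were scipy 1.17.1, numpy 2.4.6, pandas 2.3.3 and matplotlib 3.10.9 on Python 3.11.15.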

Additional observations from a re-analysis of the deposited data

How the results depend on the processing

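The median TKO CME level of the late-gaining bins lay between 15.9% and 17.3% under 9 alternatives, the median TKO CP level between 38.4% and 39.8% under 7, and the share adjoining a bin at 50% or more in TKO SC between 20.9% and 25.9% under 7. Shifting the bins, 20 or more reads per CpG, the mean of CpG levels, a correction for unconverted cytosine, and autosomes alone (chosen after seeing the data) kept the number of bins and calls within 1.5 times. The bins themselves changed in part. Among the 354 were 280 of the 340 bins by the mean of CpG levels. With 20 or more reads per CpG they were 294 of 328, and after the correction 349 of 356. The number of bins was 171 with TKO CP at 40% or more, 546 at 25% or more and 100 with a ceiling of 10%. Chosen on single strands, 112 of the 189 bins chosen on the plus strand, and 112 of the 165 chosen on the minus strand, also met the rule on the other strand. Bins called higher in TKO CME than in TKO SC, tested on the other strand, numbered 11 of the 189 and 20 of the 165. These strand counts come from 23800 bins, of which 1.69% were called higher on the minus strand and 1.70% on the plus strand. Among the 354 bins, 0 were called at 25 points or more and 197 with the adjusted p alone. The median CpG number was 14 in 500 bp bins and 23.5 with 10 or more CpGs required, which follows from the construction of these bins. No paired analysis was possible because each group is 1 library. Without replicate libraries, culture and library effects cannot be told apart from genotype and stage.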
